A study of Mus musculus with 5 samples.

Results

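The genes described here encode the enzymes and regulators that build fatty acids, triglycerides and cholesterol. They were taken from a fixed list of 38 gene names, each read through the probe set with the highest mean of those annotated to its symbol, and all 38 were measured among the 19938 genes of the arrays. The list was divided by pathway into 17 genes of fatty acid synthesis, 6 of triglyceride assembly and 15 of sterol synthesis, and Agpat6 is carried in the annotation under its current symbol, Gpat4. Expression was measured in whole mammary gland of 8-week-old female FvB/N mice, 1 array per mouse. The 3 cyclin D1 glands came from mice with both the MMTV-rtTA transgene and a cyclin D1 transgene (rtTA/CCND1), and the 2 control glands from mice with MMTV-rtTA alone. All 5 mice therefore carried rtTA, the tetracycline-dependent activator, under a viral promoter that is active mainly in mammary epithelium. The treatment protocol in the labels gives the bi-transgenic mice, which it words as a KE mutant, doxycycline for 7 days and does not say whether control mice were given the drug.

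Fatty acids are made in the cytosol from citrate. ATP citrate lyase releases acetyl-CoA, acetyl-CoA carboxylase turns it into malonyl-CoA, and fatty acid synthase, elongases and desaturases build and modify the chain. Glycerol phosphate acyltransferases, lipins and diacylglycerol acyltransferases then join the chains to glycerol, while the mevalonate pathway leads through squalene to cholesterol. Both routes are switched on by the SREBP transcription factors, which INSIG proteins hold in the endoplasmic reticulum when sterol is plentiful. In the mammary gland the same enzymes work in the adipocytes of the fat pad and in the secretory epithelium, where they make milk fat.

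Values are log2 expression per probe set, so a difference of 1 is a doubling, and differences are given as cyclin D1 minus control. The arrays differed in range: the SD over all genes was 1.20 to 1.38 on the cyclin D1 arrays and 0.735 and 0.926 on the controls. Genes with high signal were higher in cyclin D1 glands as a class, with a median difference of 1.59 in the decile of highest mean expression and -0.29 in the lowest. For this reason differences are also given after a further quantile normalization across the 5 arrays, called renormalized below. Ccnd1 itself stood at 4.52 ± 0.47 (SD, n = 3) in cyclin D1 glands and 3.77 ± 0.39 (SD, n = 2) in controls, a difference of 0.75 (SE 0.32) that did not pass the test (limma adjusted p = 0.218) and turned to -0.14 when renormalized (adjusted p = 0.882). No source used here tells whether its probe set reads the transgene. Markers of epithelium and fat were both present on every array, and all but Cidea in control 1 lay above the average olfactory receptor gene of the array, taken as a rough floor.

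Few of the lipid synthesis genes passed the test. Acaca and Nsdhl passed the test, both higher in cyclin D1 glands, which is 2 of 38 or 5.26% against 5.38% of all genes tested. None of the 38 was called lower, against 0.687% of all genes. Of the 38 differences 29 were positive and 9 negative, with a median of 0.60 against -0.053 over all genes. After renormalization 18 were positive and 20 negative, the median was -0.015 against -0.021 over all genes, and 0 passed in either direction, where the shares over all genes were 0.256% higher and 0.105% lower. At an unadjusted p under 0.05 the deposited values gave 14 of the 38, or 36.8% against 26.3% of all genes. From the deposited to the renormalized scale 12 of the 38 differences turned from positive to negative and 1 the other way.

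The medians of the branches were close on the deposited scale. The median difference was 0.68 over the fatty acid genes, 0.58 over the triglyceride genes and 0.55 over the sterol genes. Renormalized, these medians were -0.27, 0.00032 and 0.047. In 18 of the 38 genes all 3 cyclin D1 values lay above both controls, a share of 47.4% against 22.4% of all genes, and in 2, Mlxipl and Lss, they lay below both, against 22.6%. By branch the higher set held 8 fatty acid, 2 triglyceride and 8 sterol genes. After renormalization 10 of the 38 lay wholly above and 8 wholly below the controls, where all genes gave 20.1% and 19.5%.

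**Figure D1:**
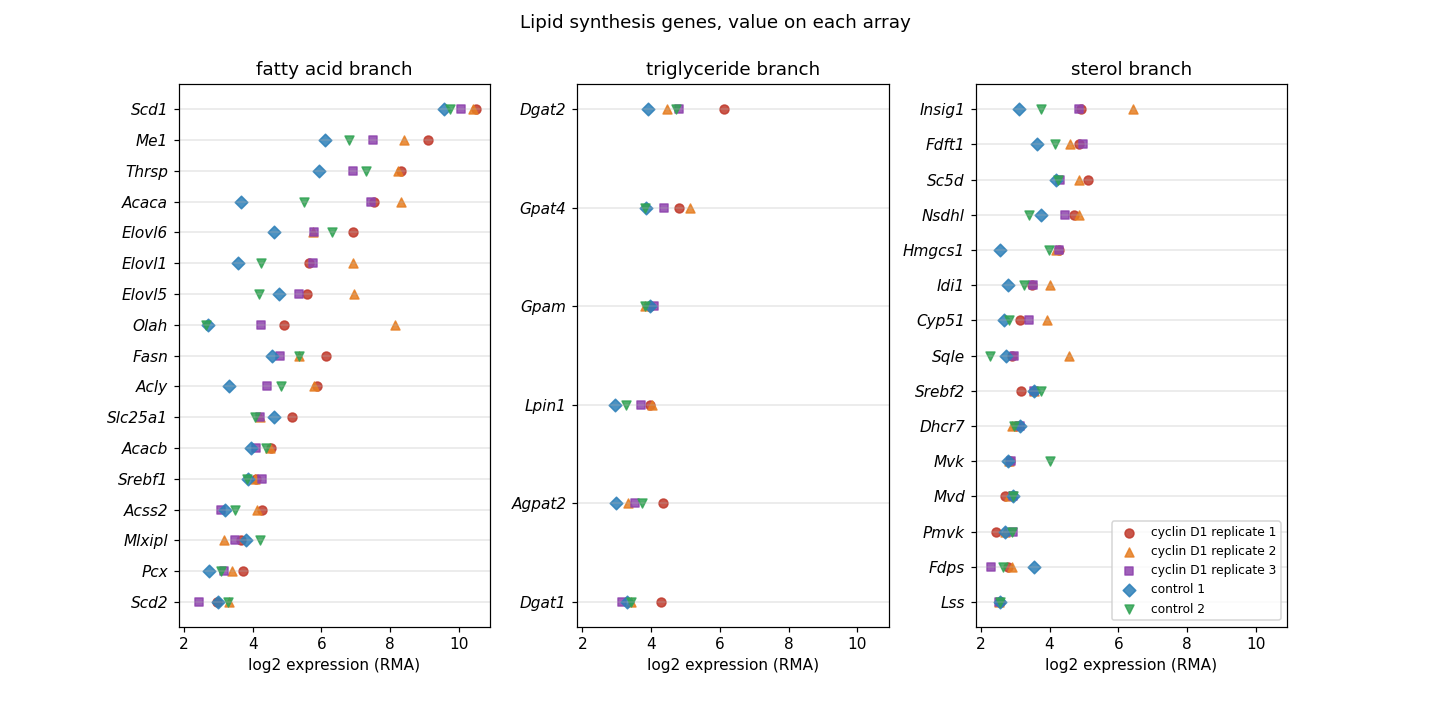
Log2 expression (x axis) of each of the 38 genes (rows, sorted by the cyclin D1 mean) on the 3 cyclin D1 arrays and the 2 control arrays, by branch; each point is 1 array, and there are no error bars. The 3 cyclin D1 points of Acaca lie at 7.44 to 8.32 and its controls at 3.65 and 5.50, while Lss holds 1 level, 2.52 to 2.55, on all 5 arrays.

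Signal level has to be read beside these counts. No non-overlap share, and no share at an unadjusted p, is given here for genes of like signal. Of the 38 genes 15 lay in the decile of highest mean expression, 11 of them in the fatty acid branch. Their median difference was 1.20, below the 1.59 of all genes in that decile, and 1 of the 15 was called higher, against 36.0% of the genes of that decile. Renormalized, the 15 had a median of -0.044 and the decile 0.36. In the next decile the 6 lipid genes had a median of 0.62 and all genes 0.67. The median of the bright lipid genes thus lay below that of other bright genes on both scales. In deciles 7 and 8 it lay above. The 6 lipid genes of decile 7 had a median of 0.25 and all genes 0.026 (0.21 and -0.026 renormalized). The 7 of decile 8 had 0.36 and all genes 0.17 (0.096 and -0.064 renormalized). In decile 6 the 2 lipid genes had -0.27 and all genes -0.064 (-0.33 and -0.029 renormalized). Deciles 4 and 5 held 1 lipid gene each, above the decile median on both scales. These comparisons are a description with no test.

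**Figure D2:**
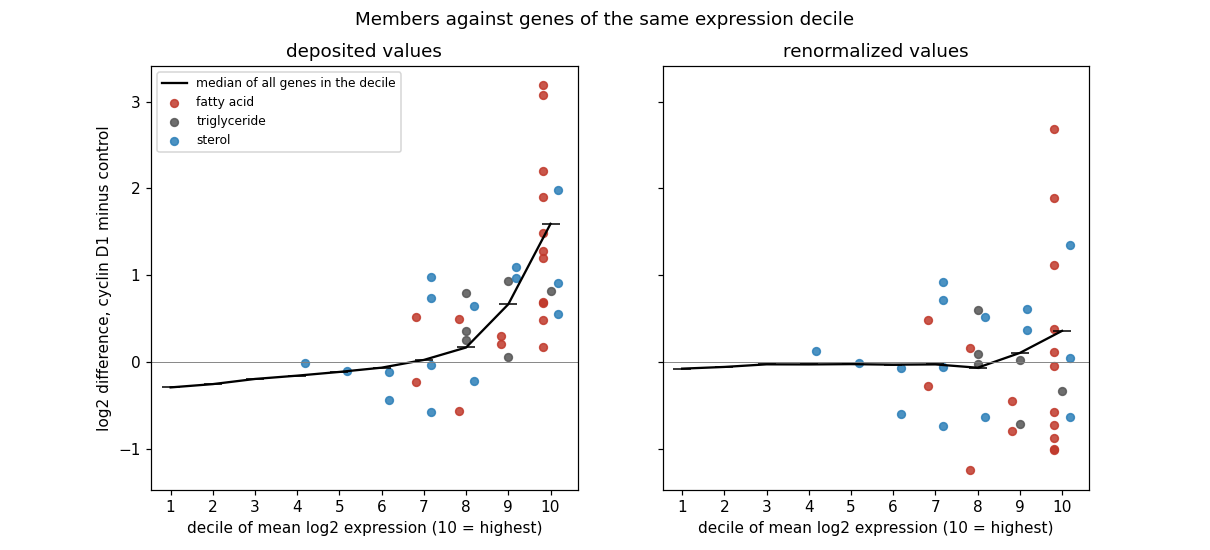
Log2 difference, cyclin D1 minus control (y axis), against the decile of mean expression (x axis) for the 38 genes as points coloured by branch and for all genes as a line of decile medians, on the deposited scale (left) and renormalized (right). The line reaches 1.59 in the highest decile on the left and 0.36 on the right, and most fatty acid genes of that decile lie under it.

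The entry into fatty acid synthesis held the gene with the largest difference. Acaca encodes acetyl-CoA carboxylase 1, the cytosolic enzyme that makes malonyl-CoA for chain building. It stood at 7.52, 8.32 and 7.44 in cyclin D1 replicates 1, 2 and 3, against 3.65 and 5.50 in controls 1 and 2. All cyclin D1 values lay above both controls, which themselves differed by 1.85. Acaca rose by 3.19 (log2, SE 0.59), a 9.12-fold difference with a limma adjusted p of 0.0447, and the renormalized difference of 1.89 did not pass (adjusted p = 0.178). The call held without control 2 (adjusted p = 0.0375) and was lost without control 1 or any 1 cyclin D1 array (adjusted p = 0.106 to 0.157).

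The probe set behind that value, 10394538, is annotated to Acaca, a gene of chromosome 11, but of the 20 annotated probe sets with the nearest numbers 18 carry genes of chromosome 12 and 0 of chromosome 11. A second Acaca probe set, 10379820, has 19 of its 20 neighbours by number on chromosome 11. It read 6.92, 6.91 and 6.19 in cyclin D1 glands against 3.72 and 4.43 in controls. With it in place of the brighter one, Acaca rose by 2.60 (adjusted p = 0.0228), so both probe sets gave the same call. Me1 and Idi1 were in the same position. The Me1 probe set used has 17 of its 20 neighbours on chromosome 13 although the gene lies on chromosome 9, and the one for Idi1 has 19 of 20 on chromosome 2 although the gene lies on chromosome 13.

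Acacb encodes the mitochondrial isoform of the carboxylase, whose product limits fatty acid oxidation. It read 4.52, 4.50 and 4.10 in cyclin D1 glands against 3.95 and 4.38 in controls, and the groups overlapped. Its difference was 0.21 (95% confidence interval -0.33 to 0.75, adjusted p = 0.557), and -0.79 after renormalization (adjusted p = 0.0673). No test set the 2 isoforms against each other. Acly, ATP citrate lyase, read 5.86, 5.78 and 4.40 in cyclin D1 glands against 3.31 and 4.82 in controls, with cyclin D1 replicate 3 below control 2 and a difference of 1.28 (SE 0.63, adjusted p = 0.265; 0.38 renormalized). Slc25a1, the carrier that exports citrate from mitochondria, differed by 0.18 with overlapping groups, and turned to -1.01 when renormalized (adjusted p = 0.339). Acss2 and Pcx, which make acetyl-CoA from acetate and oxaloacetate from pyruvate, differed by 0.49 and 0.52 (0.16 and 0.49 renormalized).

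Fasn, the synthase that assembles palmitate, did not pass the test. It read 6.14, 5.36 and 4.81 in cyclin D1 glands and 4.56 and 5.36 in controls. Cyclin D1 replicate 2 and control 2 held nearly the same value, and the difference was 0.48 (95% confidence interval -0.65 to 1.61, adjusted p = 0.520). Renormalized it was -0.999 (adjusted p = 0.172), with all 3 cyclin D1 values below both controls. Me1, the malic enzyme that supplies NADPH, read 9.10, 8.41 and 7.51 in cyclin D1 glands against 6.09 and 6.79 in controls. Its groups did not overlap, but the difference of 1.90 (SE 0.50, adjusted p = 0.0891) did not pass and shrank to 0.12 after renormalization. The probe set of Me1 whose neighbours lie on the gene's own chromosome gave 1.80 (adjusted p = 0.169). Thrsp, the Spot 14 protein that promotes lipogenesis in fat and mammary epithelium, differed by 1.20 (SE 0.59, adjusted p = 0.263), with cyclin D1 replicate 3 at 6.90 below control 2 at 7.28. Renormalized, Thrsp turned to -0.57 (adjusted p = 0.418), with all cyclin D1 values below both controls.

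Olah had the second largest difference of the 38 and the widest scatter. It encodes thioesterase II, which releases medium-chain fatty acids from the synthase in lactating epithelium. It read 4.90, 8.14 and 4.24 in cyclin D1 glands against 2.71 and 2.65 in controls. These control values lay near the rough floor of their arrays, 2.52 and 2.38, so the size of the difference is inexact. Every cyclin D1 gland lay above both controls, and replicate 2 stood 3.23 above the next. The difference of 3.08 (SE 1.17, adjusted p = 0.174; 2.69 renormalized) did not pass. Olah was singled out after its values were seen, as were Acacb, Acly, Fasn, Thrsp, Elovl6, Hmgcs1, Mvk and Sqle.

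Of the elongases, Elovl1, which lengthens saturated and monounsaturated very long chains, read 5.63, 6.91 and 5.76 in cyclin D1 glands against 3.56 and 4.25 in controls. The groups were apart, and the difference of 2.20 (SE 0.45) lay just outside the threshold (adjusted p = 0.0556; 1.12 renormalized). Elovl5, an elongase of polyunsaturated chains, differed by 1.49 with no overlap, and -0.044 after renormalization. Elovl6, which lengthens palmitate to stearate, differed by 0.69 with overlapping groups, control 2 at 6.30 lying above cyclin D1 replicates 2 and 3 at 5.75 and 5.79, and turned to -0.88 when renormalized (adjusted p = 0.337).

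Scd1, the desaturase that makes oleate, was read at 10.49, 10.41 and 10.07 in cyclin D1 glands and 9.55 and 9.75 in controls. The groups did not overlap as deposited, with a difference of 0.68 (SE 0.18, adjusted p = 0.0929). On every array Scd1 lay above at least 99.9% of genes, and renormalized the sign turned, to -0.72 (adjusted p = 0.201). Its neighbour paralog Scd2 differed by -0.23 (-0.27 renormalized), with cyclin D1 values of 2.45 to 3.31 around controls of 3.00 and 3.28.

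The transcriptional regulators of the fatty acid branch did not pass the test. Srebf1, which encodes the SREBP-1 proteins, read 4.09, 4.07 and 4.28 in cyclin D1 glands against 3.86 and 3.83 in controls. These groups did not overlap, yet the difference was 0.31 (95% confidence interval -0.039 to 0.65, adjusted p = 0.230) and -0.44 after renormalization. Mlxipl, which encodes the carbohydrate-responsive factor ChREBP, was the 1 fatty acid gene with all cyclin D1 values below the controls. It read 3.66, 3.16 and 3.48 in cyclin D1 glands against 3.79 and 4.20 in controls, a difference of -0.56 (SE 0.22, adjusted p = 0.179). After renormalization Mlxipl had the most negative difference of the 38, -1.25 (adjusted p = 0.0541).

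In the triglyceride branch all 6 differences were positive and 0 passed in limma, with 2 at an unadjusted p under 0.05 (33.3%, against 26.3% of all genes). Lpin1, the phosphatidate phosphatase that makes diacylglycerol, read 3.98, 4.04 and 3.71 in cyclin D1 glands against 2.94 and 3.28 in controls, with no overlap. Its difference was 0.80 (SE 0.18, adjusted p = 0.0679), and 0.60 after renormalization (adjusted p = 0.156). Gpat4, listed as Agpat6, is the endoplasmic reticulum glycerol phosphate acyltransferase known for its role in milk fat in mice. It read 4.80, 5.13 and 4.38 in cyclin D1 glands against 3.85 and 3.82 in controls, a difference of 0.94 (SE 0.24, adjusted p = 0.0843) that came to 0.025 after renormalization.

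The other acyltransferases of the branch overlapped between the groups. Dgat2, a diacylglycerol acyltransferase, read 6.13, 4.46 and 4.81 in cyclin D1 glands against 3.90 and 4.73 in controls, so that cyclin D1 replicate 1 alone stood well above both controls. Its difference was 0.82 (SE 0.55, adjusted p = 0.385; -0.33 renormalized). Agpat2, which adds the second acyl chain, read 4.34, 3.32 and 3.52 in cyclin D1 glands against 2.99 and 3.75 in controls, a difference of 0.36 (adjusted p = 0.579; 0.096 renormalized). Dgat1, the other diacylglycerol acyltransferase, differed by 0.25 (-0.024 renormalized) and Gpam, the mitochondrial acyltransferase, by 0.059 (-0.71 renormalized).

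**Figure D3:**
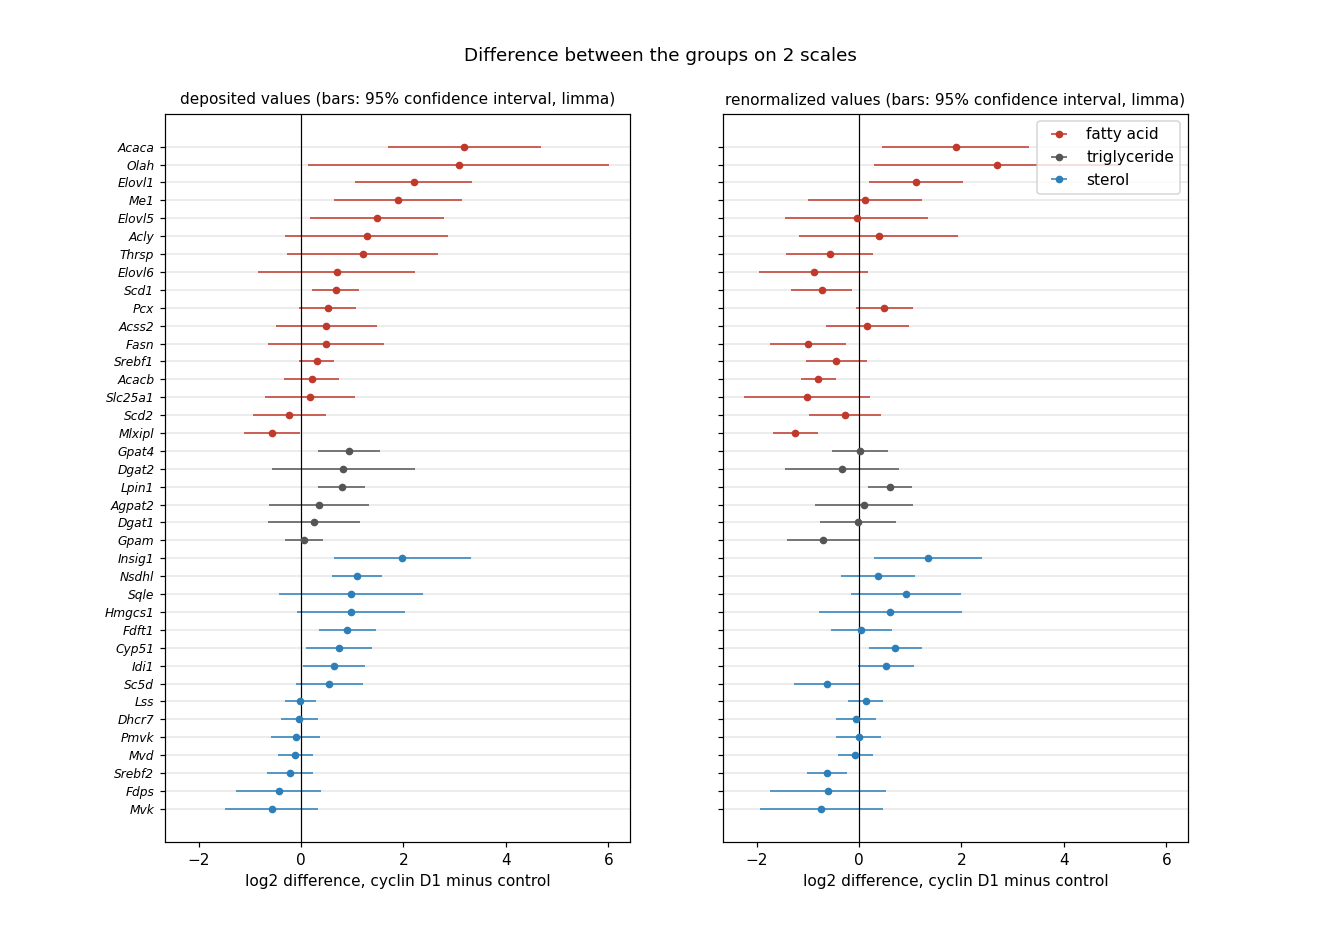
Log2 difference, cyclin D1 minus control (x axis), of the 38 genes (rows, sorted within each branch) with 95% confidence intervals from limma over 3 cyclin D1 and 2 control arrays, on the deposited scale (left) and renormalized (right). Acaca and Olah have the largest values on both sides, 3.19 and 3.08 on the left and 1.89 and 2.69 on the right, and Mlxipl has the most negative value on the right, -1.25.

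The sterol branch split into 8 genes with positive and 7 with negative differences. The positive ones, of 0.55 to 1.98, belonged to Insig1, Nsdhl, Sqle, Hmgcs1, Fdft1, Cyp51, Idi1 and Sc5d. In each of these all 3 cyclin D1 values lay above both controls, or 53.3% of the branch against 22.4% of all genes. The other 7, Mvk, Pmvk, Mvd, Fdps, Lss, Dhcr7 and Srebf2, had differences of -0.57 to -0.012. The 2 sets also differed in signal: the positive genes lay in deciles 7 to 10 of mean expression and the others in deciles 4 to 8. Renormalized, 7 of the 8 kept a positive difference, as small as 0.047 in Fdft1, and Sc5d did not. Only Insig1, Sqle, Cyp51 and Idi1 of the 8 then still lay wholly above the controls. The groups overlapped in Nsdhl, Hmgcs1 and Fdft1, and Sc5d lay wholly below.

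Promoters of the sterol genes are shown because most of these genes share a box for NF-Y, a factor that works together with SREBP, whether or not they differed here. The 250 bases before the annotated start are printed for 4 genes of the higher set (Nsdhl, Insig1, Hmgcs1 and Cyp51) and 2 of the others (Lss and Mvd), from RefSeq on GRCm38.p6, 5′ to 3′ in the direction of the gene. Capitals mark the NF-Y box CCAAT or its reverse complement ATTGG, the E-box CACGTG, and the sterol response element TCACNCCAC, searched on both strands. The regions are chrX:72918271-72918520 on the plus strand for Nsdhl, chr5:28071162-28071411 on the plus strand for Insig1, chr13:119690101-119690350 on the plus strand for Hmgcs1, chr5:4104698-4104947 on the minus strand for Cyp51, chr10:76531355-76531604 on the plus strand for Lss and chr8:122443423-122443672 on the minus strand for Mvd.
Nsdhl: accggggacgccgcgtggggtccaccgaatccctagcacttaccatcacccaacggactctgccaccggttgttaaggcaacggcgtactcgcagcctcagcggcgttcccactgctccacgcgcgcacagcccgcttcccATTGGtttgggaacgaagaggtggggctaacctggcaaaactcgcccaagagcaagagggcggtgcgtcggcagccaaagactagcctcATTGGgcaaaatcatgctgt
Insig1: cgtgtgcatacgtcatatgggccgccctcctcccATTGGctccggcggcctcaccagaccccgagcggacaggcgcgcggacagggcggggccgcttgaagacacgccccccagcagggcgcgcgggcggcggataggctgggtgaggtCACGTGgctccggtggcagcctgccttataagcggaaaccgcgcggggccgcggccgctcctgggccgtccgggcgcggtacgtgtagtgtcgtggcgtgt
Hmgcs1: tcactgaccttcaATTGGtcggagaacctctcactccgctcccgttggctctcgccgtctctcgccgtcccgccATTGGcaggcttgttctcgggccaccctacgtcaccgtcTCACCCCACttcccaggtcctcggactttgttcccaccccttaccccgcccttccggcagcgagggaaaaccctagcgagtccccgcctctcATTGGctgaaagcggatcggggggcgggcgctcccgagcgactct
Cyp51: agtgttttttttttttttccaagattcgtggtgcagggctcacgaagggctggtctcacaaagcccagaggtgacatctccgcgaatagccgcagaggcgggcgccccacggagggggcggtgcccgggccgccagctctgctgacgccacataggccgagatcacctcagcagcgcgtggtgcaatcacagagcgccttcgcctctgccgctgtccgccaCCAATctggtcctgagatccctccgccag
Lss: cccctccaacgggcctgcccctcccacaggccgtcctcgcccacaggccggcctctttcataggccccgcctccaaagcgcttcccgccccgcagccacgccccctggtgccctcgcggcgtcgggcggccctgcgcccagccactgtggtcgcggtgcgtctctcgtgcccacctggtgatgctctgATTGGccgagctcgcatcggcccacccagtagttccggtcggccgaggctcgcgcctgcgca
Mvd: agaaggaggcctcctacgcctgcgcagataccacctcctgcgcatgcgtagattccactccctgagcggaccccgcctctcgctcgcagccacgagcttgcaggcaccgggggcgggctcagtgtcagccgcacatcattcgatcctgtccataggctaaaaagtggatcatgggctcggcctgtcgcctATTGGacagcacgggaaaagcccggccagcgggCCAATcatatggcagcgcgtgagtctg

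Promoter windows, from 250 bases before to 50 after a start, were listed for 30 of the 38 genes. CCAAT was found in all 12 sterol genes that had a window and in 12 of 15 fatty acid genes, against 41.1% of the 27025 genes of the table, and in 1 of 3 triglyceride genes. CACGTG was found in 3 of the 12 sterol and 4 of the 15 fatty acid genes, against 8.09%. The exact letters TCACNCCAC were found in Hmgcs1 and in a window of Mlxipl, against 1.44% of all genes. These matches describe the sequence alone. The NF-Y box was present in Lss and Mvd, whose differences were -0.012 and -0.11, as well as in Insig1 and Nsdhl. Because all 12 sterol genes with a window held it, its presence could not separate the 2 sets.

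Nsdhl, which encodes a sterol dehydrogenase that acts in the removal of methyl groups after lanosterol, was the sterol gene that passed. It read 4.71, 4.85 and 4.43 in cyclin D1 glands against 3.74 and 3.40 in controls, with little spread in either group. It rose by 1.096 (SE 0.19, limma adjusted p = 0.0395), a 2.14-fold difference, and the renormalized difference was 0.38 (adjusted p = 0.518). The call was lost without any 1 of the 5 arrays (adjusted p = 0.0711 to 0.163). Insig1, the sterol-dependent protein that retains SREBP and is itself an SREBP target, had the largest difference of the branch. It read 4.93, 6.41 and 4.87 in cyclin D1 glands against 3.10 and 3.74 in controls, with every cyclin D1 value more than 1 above both controls. Its difference was 1.98 (SE 0.53, adjusted p = 0.0934), and 1.35 after renormalization (adjusted p = 0.185).

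At the head of the mevalonate pathway, Hmgcs1, HMG-CoA synthase, read 4.26, 4.20 and 4.26 in cyclin D1 glands against 2.55 and 3.99 in controls. The 3 cyclin D1 values were nearly alike while the controls differed by 1.44, and the difference of 0.97 (SE 0.42, adjusted p = 0.217; 0.61 renormalized) did not pass. The values of replicates 1 and 3 were identical to the last deposited decimal. Idi1, which isomerises isopentenyl diphosphate, differed by 0.65 (adjusted p = 0.169; 0.52 renormalized), and by 0.54 through the probe set whose neighbours lie on its own chromosome. The enzymes between them, Mvk, Pmvk and Mvd, and farnesyl diphosphate synthase, Fdps, were dim, with group means of 2.66 to 2.85 in cyclin D1 glands and 2.81 to 3.42 in controls, and overlapped. Mvk read 2.85, 2.81 and 2.87 in cyclin D1 glands against 2.80 and 4.03 in controls, so its difference of -0.57 (-0.73 renormalized) rested on control 2.

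At the squalene step Fdft1, squalene synthase, read 4.86, 4.60 and 4.96 in cyclin D1 glands against 3.63 and 4.17 in controls. The groups did not overlap, and the difference of 0.91 (SE 0.22, adjusted p = 0.0742) came to 0.047 after renormalization. Its dimmer second probe set differed by 0.44. Sqle, the epoxidase that follows, read 2.90, 4.58 and 2.97 in cyclin D1 glands against 2.74 and 2.26 in controls, so that replicate 2 carried most of the difference of 0.98 (SE 0.56, adjusted p = 0.319; 0.92 renormalized). Control 2 lay below the olfactory receptor mean for Sqle, the only such value among the 38 genes, and that difference is inexact. That mean was 2.52 and 2.38 on controls 1 and 2, and 1.97 to 2.23 on the cyclin D1 arrays. Some other values lay just above it, among them Hmgcs1 and Lss in control 1, both at 2.55, so their differences are inexact too.

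Of the enzymes after lanosterol, Cyp51, the lanosterol demethylase, read 3.15, 3.94 and 3.40 in cyclin D1 glands against 2.67 and 2.83 in controls. Its difference was 0.74 (SE 0.26, adjusted p = 0.150) and nearly the same, 0.71, after renormalization (adjusted p = 0.164). Sc5d, a late desaturase, read 5.12, 4.86 and 4.31 in cyclin D1 glands against 4.19 and 4.24 in controls, a difference of 0.55 (SE 0.26, adjusted p = 0.252) that turned to -0.63 after renormalization. Dhcr7, the last reductase, differed by -0.034 (95% confidence interval -0.40 to 0.33; -0.061 renormalized). Lss, the cyclase that forms lanosterol, differed by -0.012 (95% confidence interval -0.32 to 0.29; 0.13 renormalized), with cyclin D1 values of 2.52 to 2.55 just below controls of 2.55. Srebf2, which encodes the main SREBP of cholesterol synthesis, read 3.18, 3.55 and 3.55 in cyclin D1 glands against 3.55 and 3.74 in controls. The groups overlapped, with a difference of -0.22 (SE 0.18, adjusted p = 0.462) and -0.63 after renormalization (adjusted p = 0.128).

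The 3 cyclin D1 glands differed from one another, and the lipid genes fell into several orders among them. Cyclin D1 replicate 2 stood more than 1 above both other cyclin D1 arrays in 5 of the 38 genes, or 13.2%, against 1.11% of all genes and 3.71% of the decile of highest expression. These 5 were Olah, Sqle, Insig1, Elovl5 and Elovl1. Replicate 1 stood out in the same way in Dgat2 and Elovl6, or 5.26%, against 0.547% of all genes and 2.16% of the highest decile. Replicate 3 lay more than 1 below both others in Acly, Thrsp and Acss2, or 7.89%, against 0.707% of all genes and 4.61% of the highest decile. In the fatty acid branch replicate 3 was the lowest of the 3 in 13 of 17 genes, where 24.9% of all genes and 56.5% of the highest decile had that order. Among the controls, control 2 exceeded control 1 by more than 1 in 6 of the 38 genes, Acaca, Elovl6, Acly, Hmgcs1, Thrsp and Mvk. That is 15.8% against 5.45% of all genes and 34.2% of the highest decile. Of the 15 lipid genes in the highest decile, 4 or 26.7% had this control gap. Replicate 2 stood out in 26.7% of the 15, replicate 1 in 13.3%, and replicate 3 lay more than 1 below both others in 13.3%. It was the lowest in 73.3% of them.

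Markers of fat and epithelium differed among the same arrays. In bulk glands fewer cells of a type and less RNA per cell cannot be told apart. Of 12 measured adipocyte markers 0 passed the test in limma (0 also at an unadjusted p under 0.05), and their median difference was 0.31, with 7 positive and 5 negative. Renormalized it was -0.52, with 3 positive and 9 negative. As deposited, 10 of the 12 had their lowest cyclin D1 value in replicate 2. Their summed linear level was 491 to 1959 over the cyclin D1 arrays, lowest in replicate 2, and 821 and 1009 in the controls. Adipoq, the adipokine adiponectin, read 8.66, 6.43 and 8.53 in cyclin D1 glands against 7.57 and 8.38 in controls. Of 12 measured markers of luminal and alveolar epithelium 5, or 41.7%, were called higher, against 5.38% of all genes. They were Epcam, Cdh1, Elf5, Csn3 and Csn1s1. Of the 12, 8 lay in the decile of highest mean expression, where 36.0% of genes were called higher. After renormalization 0 of the 12 passed (limma adjusted p of the 5 from 0.0541 to 0.132). The median difference was 1.40, and 0.67 renormalized. All 12 differences were positive as deposited, the smallest in Krt7 (0.0045). Renormalized, 10 were positive and 2 negative, Krt18 (-0.55) and Csn2 (-0.088). The summed linear level of the 12 was 8935 to 11325 in cyclin D1 glands against 2299 and 4090 in controls. Most of that sum on every array came from the milk protein genes Csn2, Csn1s1, Csn3 and Wap. Wap, a milk protein gene, read 9.52, 11.65 and 8.95 in cyclin D1 glands against 4.71 and 6.46 in controls, with replicate 2 the highest as in Olah. The part of either cell type in the lipid results was not tested.

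**Figure D4:**
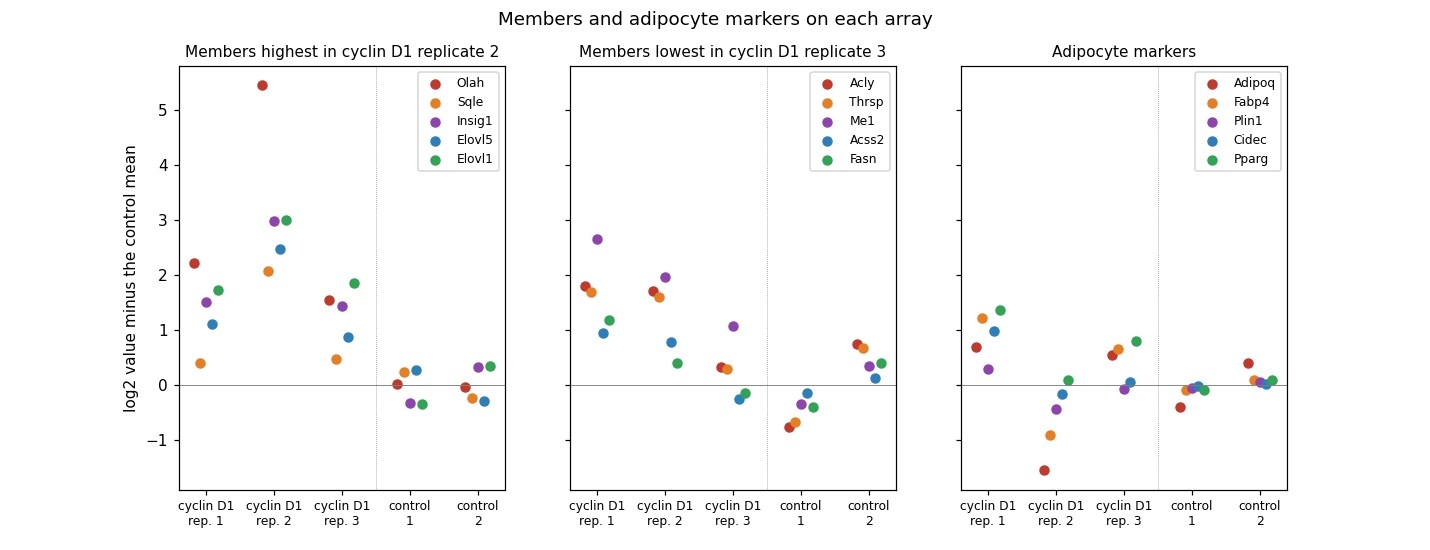
Log2 value minus the gene's control mean (y axis) on each of the 5 arrays for 5 genes highest in cyclin D1 replicate 2, 5 genes lowest in cyclin D1 replicate 3, and 5 adipocyte markers; each point is 1 gene on 1 array, and the sets were chosen after their values were seen. In replicate 2 Olah lies 5.45 above its control mean and Adipoq is at its lowest, -1.55.

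Other genes of the same pathways had a median difference of 0.11, with 30 positive and 17 negative. Of 55 further names 47 were measured, and 2 of these, or 4.26%, were called higher and 0 lower, against 5.38% and 0.687% of all genes. Both belong to chain elongation and desaturation: Hsd17b12, the ketoacyl reductase of the elongation cycle, read 6.56, 6.20 and 5.84 in cyclin D1 glands against 3.77 and 3.39 in controls and rose by 2.62 (SE 0.26, adjusted p = 0.0165). Fads1, the delta-5 desaturase, read 4.997, 6.65 and 5.72 in cyclin D1 glands against 3.19 and 3.31 in controls and rose by 2.54 (SE 0.48, adjusted p = 0.0459). Renormalized, these differences were 1.57 (adjusted p = 0.0983) and 1.91 (adjusted p = 0.0799). Fads1 lost its call without any 1 of the 5 arrays (adjusted p = 0.0774 to 0.184), and Hsd17b12 without control 1 (0.103), cyclin D1 replicate 1 (0.0915) or replicate 2 (0.0659).

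The further triglyceride and sterol genes held no call in limma, with 2 and 1 of 12 genes at an unadjusted p under 0.05 (16.7% and 8.33%, against 26.3% of all genes). In the triglyceride set, with a median of -0.025 over 12 genes, the smallest p values were those of Lpin3, a lipin, at -0.42 (adjusted p = 0.130; -0.33 renormalized) and Gpat2, an acyltransferase known from testis, at -0.47 (adjusted p = 0.162; -0.37 renormalized). In the sterol set, with a median of 0.11 over 12 genes, they were those of Scap, the escort of SREBP, at 0.37 (adjusted p = 0.134) and Insig2 at 0.41 (adjusted p = 0.198; -0.24 renormalized). Scap read 3.80 on all 3 cyclin D1 arrays against 3.44 and 3.43 in controls, and its renormalized difference was 0.011.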

How the data were processed

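The deposited values are log2 expression per probe set, made by the authors with RMA in Affymetrix Expression Console 1.1, according to the submitters' processing notes; the log base was read from their range, 0.830 to 12.9. Whether other arrays were normalized with these 5, and the genome build, are not given in the sources used here. Of 35556 probe sets 21789 carried 1 gene symbol, 1621 several and 12146 none in the platform annotation, and entrez identifiers of 21698 matched the GRCm38.p6 RefSeq table. The probe set with the highest mean was kept per symbol, without a filter on dim genes. Groups came from the sample titles, and the design text calls the mice separate animals. The comparison used lmFit and eBayes of limma 3.58.1 under R 4.3.3 (two-sided, Benjamini-Hochberg over 19938 genes, threshold 0.05). The fit was tested on simulated data with independent normal noise. That simulation did not include the difference in array range seen here. Renormalized values are the gene values after quantile normalization of the 5 arrays. The rough floor is the mean of 1015 olfactory receptor genes on each array. Detection calls were not used. Precision is limited by the number of arrays. Members, lists and alternatives were chosen with earlier results of these data known. Named with array values are members that passed, the 4 with the smallest p and the 2 with the highest mean per branch, and Srebf1, Srebf2, Insig1 and Mlxipl; of other genes, those that passed and the 2 with the smallest p per branch. Alternatives are given in the closing section. Marker lists of 8 cell types were read.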

Additional observations from a re-analysis of the deposited data

How the results depend on the processing

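With 3 against 2 arrays, and with array ranges that differ between the groups, few calls held across the alternatives. Over all genes 1072 were called higher and 137 lower. These counts became 51 and 21 after quantile normalization of the 5 arrays, 597 and 71 after centring on the median and division by the MAD, 622 and 185 with an intensity trend, and 263 and 4 with array weights. They stayed closer with median centring alone (1261 and 117), a robust prior (1031 and 116), dim genes left out (1135 and 112), the mean of probe sets (1095 and 151) and all probe sets (1264 and 164). Each of these closer settings called 2 or 3 of the 38 higher and 0 lower, and Elovl1 passed when median centred (limma adjusted p = 0.0483). Leaving out 1 array gave 0 to 1365 higher and 0 to 1063 lower; without control 1, cyclin D1 replicate 1 or cyclin D1 replicate 2 it gave 0 by limma, with 4973, 3568 and 3491 genes at an unadjusted p under 0.05. Where 1 control is left, it is assumed to vary like the other group. Quantile normalization without control 1 gave 555 and 894, and without control 2, added after seeing the data, 2221 and 3154. Between samples of the same replicate number the correlation of deviations from the group mean was -0.026 for number 1 and 0.126 for number 2. The deviations of the 2 controls are equal and opposite, and cyclin D1 replicate 3 has no partner, so these values cannot exclude a pairing. With the replicate block 1137 genes were called higher and 10 lower, Nsdhl (adjusted p = 0.0693) and Fads1 (adjusted p = 0.0530) lost their calls, and Elovl1 (adjusted p = 0.0284) and Insig1 (adjusted p = 0.0339) gained one, so that 3 of the 38 were called higher.

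Of the 38 genes 0 were called higher after quantile normalization, MAD scaling, the intensity trend or array weights, and 0 to 2 with 1 array left out. Quantile normalization without control 1 gave 1 higher and 3 lower, and without control 2 it gave 6 and 7. Of the 47 other pathway genes 0 were called higher after quantile normalization, 1 with the trend, 1 with array weights and 0 to 2 with 1 array left out; quantile normalization without control 1 gave 1 higher and 1 lower, and without control 2 it gave 4 and 6. The fatty acid median was -0.27 after quantile normalization, 0.0066 after MAD scaling, and -0.30 and -0.45 after quantile normalization without control 1 or 2. The triglyceride median was 0.00032, 0.30, -0.18 and -0.051 in the same order, and the sterol median 0.047, 0.14, 0.10 and 0.10. With 1 array left out the fatty acid median was 0.38 (without cyclin D1 replicate 1) to 0.88, the triglyceride median 0.19 (without cyclin D1 replicate 1; 0.30 without control 1) to 0.83, and the sterol median 0.25 (without control 1) to 0.72.

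After quantile normalization the sign turned in 13 of the 38 genes: Fasn (-0.999), Acacb (-0.79), Scd1 (-0.72), Elovl5 (-0.044), Elovl6 (-0.88), Thrsp (-0.57), Srebf1 (-0.44), Slc25a1 (-1.01), Dgat1 (-0.024), Dgat2 (-0.33), Gpam (-0.71), Sc5d (-0.63) and Lss (0.13). Of the other pathway genes named by the rule it turned in Insig2 (-0.24). Outside the rule it turned in more of them, among them Tecr (-1.11), Gpd1 (-0.64), Lbr (-0.42), Ggps1 (-0.38) and Agpat3 (-0.097). The alternatives below were read only for the genes named by the rule. Without control 1 as well it turned in Agpat2 (-0.44), Dgat2 (-0.68), Fdft1 (-0.20), Sc5d (-0.36), Scd1 (-0.38) and Srebf1 (-0.16). Without control 2 instead it turned in Dgat2 (-0.071), Gpat4 (-0.28), Insig2 (-0.86), Me1 (-0.037), Nsdhl (-0.10), Sc5d (-1.0035), Scap (-0.12), Scd1 (-1.02) and Srebf1 (-0.80). MAD scaling turned Scd1 (-1.54), and leaving out control 1 turned Agpat2, which ranged over -0.021 to 0.74 with 1 array left out. The cause was not tested for any of these.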

Other observations

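Among other genes of chain elongation, picked after their values were seen, Elovl7, an elongase of long chains, read 6.56, 8.01 and 6.10 in cyclin D1 glands against 4.19 and 3.37 in controls. Its difference of 3.11 (SE 0.61) lay just outside the threshold (limma adjusted p = 0.0501; 1.83 renormalized), with replicate 2 the highest as in Elovl1 and Elovl5. Hacd2, a dehydratase of the elongation cycle, read 8.16, 7.04 and 7.65 in cyclin D1 glands against 2.89 and 6.36 in controls, so that the controls differed from each other by more than the group means did. Its difference of 2.99 did not pass (adjusted p = 0.144; 1.97 renormalized). Other elongation genes of the list did not rise so far. Tecr differed by 0.62 and turned to -1.11 when renormalized, with all cyclin D1 values then below both controls. Elovl3, Hacd1, Hacd3 and Hacd4 differed by 0.0057 to 0.41. Elovl4 and Elovl2 lay wholly below the controls as deposited, at -0.36 and -0.44, Elovl2 under the rough floor on every array. Mid1ip1, which encodes a partner of Spot 14 that activates acetyl-CoA carboxylase, also had a negative difference. It read 4.05, 4.36 and 4.57 in cyclin D1 glands against 5.79 and 5.21 in controls, a difference of -1.18 (SE 0.25, adjusted p = 0.0574) and -2.54 after renormalization (adjusted p = 0.0760).

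Ucp1, the uncoupling protein of brown and beige fat, read 6.93 in cyclin D1 replicate 1, against 3.58 and 3.05 in the other cyclin D1 glands and 2.81 and 3.15 in controls. Of the remaining marker lists, myoepithelium had 1 of 8 genes called, Acta2, higher (0 after renormalization), with a summed linear level of 176 to 332 in cyclin D1 glands against 76.9 and 111 in controls. Fibroblast (341 to 651 against 143 and 460), endothelial (59.4 to 97.0 against 50.1 and 61.5), leukocyte (89.7 to 259 against 77.3 and 133), skeletal muscle (42.1 to 44.5 against 48.9 and 53.7) and red blood cell lists (14.0 to 17.5 against 19.7 and 14.5) had 0 called by limma, with 1 leukocyte gene at an unadjusted p under 0.05, each range being that of the cyclin D1 glands set against the 2 controls.

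Some values repeated to the last deposited decimal on several arrays. This was so on 2 or more arrays for 7 of the 38 genes (18.4%) and for 19.9% of all genes. Mvd and Srebf2 held 1 value on 3 arrays, and in Hmgcs1, Srebf2, Mvd and Lss a pair within a group was identical, which narrows the spread those genes show.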
